A study of Homo sapiens with 9 samples.

Results

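Sialyltransferases are the Golgi enzymes that transfer sialic acid from CMP-sialic acid onto the ends of the sugar chains of glycoproteins and glycolipids. The family names give the linkage: ST3GAL enzymes add sialic acid to position 3 of galactose, ST6GAL enzymes to position 6 of galactose, and ST6GALNAC enzymes to position 6 of N-acetylgalactosamine. Sialylated chains at the surface of tumor cells act in adhesion, in binding to selectins and other lectins, and in the interaction with endothelium, and ST6GALNAC5 is known as a gene linked to passage of breast cancer cells into the brain. The transcripts described here are those of 10 of these genes, ST3GAL1, ST3GAL2, ST3GAL4, ST3GAL5, ST3GAL6, ST6GAL1, ST6GALNAC2, ST6GALNAC4, ST6GALNAC5 and ST6GALNAC6. Members were all probe sets whose symbol in the platform annotation is 1 of the 10, which gave 27 of the 54675 probe sets on the array.

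Expression was measured in 3 human breast cancer cell lines on 9 Affymetrix U133 Plus 2.0 arrays, 3 per line. B6TC is GFP positive and independent of estrogen. It was grown out of a tumor that the bone marrow variant B6 formed in a nude mouse without estrogen supplement, and the labels describe it as a fusion of the other lines. MDA-MB-231/GFP/Neo is estrogen receptor negative and resistant to G418, and the labels name it as a clone of GFP-transfected cells. ZR-75-1/GFP/puro is estrogen receptor positive and resistant to puromycin. All 3 lines carried GFP, and RNA was taken from cultured cells. The labels call the 3 arrays of a line technical replicates, and no separate cultures are named, so the p-values measure only the spread between technical replicates and do not cover the spread between cultures or clones.

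The values are deposited log2 expression values, in which a difference of 1 is a factor of 2. Testing was limited to the 21095 probe sets that reached a log2 value of 6 on 3 or more of the 9 arrays, and a probe set was called where its limma p, adjusted by Benjamini-Hochberg, was no more than 0.05. Array medians lay between 4.89 and 4.96. Of the 6 luminal markers, all were lower in B6TC and in MDA-MB-231 than in ZR-75-1, and of the 6 mesenchymal markers all were higher. Of the leukocyte markers 3 of 4 had a probe set, and neither these nor the 3 neural markers reached 6 in any line. Of 3 endothelial markers PECAM1 alone reached 6, with means of 6.68 in B6TC, 6.69 in MDA-MB-231 and, under that level, 5.60 in ZR-75-1. The 3′ minus 5′ difference of ACTB, a measure of RNA integrity, was 0.67 on average in B6TC, compared with 0.32 in MDA-MB-231 and, close to B6TC, 0.73 in ZR-75-1. Poly-A spike-in transcripts, added before labeling, averaged 8.38, 5.37 and 7.02 on the log2 scale in the same lines. The third B6TC array stood apart. Of 226 probe sets high in ZR-75-1 alone of the parental lines, 213 were higher on it than the mean of arrays 1 and 2 of the line, by a median of 0.38. The part of these differences in the values below was not tested. Values without that array are given for some counts and differences only, and others may also move without it.

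Of the 27 sialyltransferase probe sets, 19 passed the filter and 8 did not. The 8 that were set aside are additional probe sets of ST3GAL2, ST3GAL4, ST3GAL6, ST6GAL1, ST6GALNAC4 and ST6GALNAC5, and all 10 genes kept at least 1 tested probe set. On every array these 8 lay between 2.97 and 4.92 on the log2 scale, below the filter level in all lines. Some still differed between lines without overlap, among them 1 of ST6GAL1 that is given with its gene. Background was not measured, and values under 6 are treated here as near background. Each gene is represented by its probe set of highest mean, and a second probe set is given where the pair differed or where both were well measured. Probe sets with names ending in _s_at or _x_at are treated here as open to cross-hybridization. The representatives of ST3GAL2, ST3GAL5, ST3GAL6, ST6GALNAC4 and ST6GALNAC5 are of this type. Levels are compared between lines within a probe set only, because brightness differs between probes.

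ST6GALNAC5, ST3GAL6 and ST6GAL1 had the largest positive differences from ZR-75-1 among the genes, and the sequence in front of their start sites is shown for that reason. The 250 bases before each start were taken from RefSeq on GRCh38.p14, at chr1:76867230-76867479 for ST6GALNAC5, chr3:98732012-98732261 for ST3GAL6, the most upstream of its 4 listed starts, and chr3:186930276-186930525 for ST6GAL1, all on the plus strand. Capitals mark a GC box (GGGCGG on either strand) or a CCAAT box (CCAAT on either strand).
ST6GALNAC5: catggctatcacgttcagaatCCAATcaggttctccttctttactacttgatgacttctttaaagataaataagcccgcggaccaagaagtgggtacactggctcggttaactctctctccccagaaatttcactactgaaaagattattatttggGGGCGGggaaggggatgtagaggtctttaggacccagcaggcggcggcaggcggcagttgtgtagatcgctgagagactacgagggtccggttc
ST3GAL6: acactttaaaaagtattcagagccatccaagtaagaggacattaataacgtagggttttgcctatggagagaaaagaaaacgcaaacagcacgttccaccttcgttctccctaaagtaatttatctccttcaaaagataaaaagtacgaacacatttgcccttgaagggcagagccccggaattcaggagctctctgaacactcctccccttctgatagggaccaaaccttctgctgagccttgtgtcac
ST6GAL1: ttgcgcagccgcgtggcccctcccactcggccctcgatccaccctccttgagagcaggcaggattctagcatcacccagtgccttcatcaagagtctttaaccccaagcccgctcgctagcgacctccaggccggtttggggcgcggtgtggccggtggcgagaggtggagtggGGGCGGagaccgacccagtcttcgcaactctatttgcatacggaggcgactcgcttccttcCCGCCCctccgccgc

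The ST6GALNAC5 window held 1 GC box and 1 CCAAT box at a GC content of 49.6%. The ST6GAL1 window held 2 GC boxes at 65.6% GC, and the ST3GAL6 window shown held neither motif at 44% GC. The other starts of ST3GAL6 differed from it: 1 window held 3 GC boxes at 72% GC, 1 held a GC box and a CCAAT box at 65.6% GC, and 1 held neither at 43.6% GC. None of the 3 windows held the AP-1 motif TGANTCA or the E-box CAGGTG on either strand. Starts on chromosome 8 were left out for the members. Outside it, starts were listed for 7 of the 10 genes, 18 starts in all. Some of their windows overlap, among them windows of ST3GAL5, so the 18 are not separate sequences. Of these 18 windows 12 held a GC box, 8 a CCAAT box, 2 the E-box and none the AP-1 motif. Over all 35116 windows of the same length, with no chromosome left out, the shares were 42.6%, 32%, 17.5% and 6.57% in that order. These matches describe letters and say nothing on whether a factor binds.

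In the comparison of B6TC with ZR-75-1, 6 of the 10 genes were higher in B6TC (ST3GAL2, ST3GAL5, ST3GAL6, ST6GAL1, ST6GALNAC4 and ST6GALNAC5), 3 were lower (ST3GAL1, ST3GAL4 and ST6GALNAC2) and ST6GALNAC6 did not pass the test. Gene differences lay between −2.40 and 5.10 on the log2 scale. Of the 19 tested probe sets 18 were called, 13 higher and 5 lower, which is 94.7%, against 83.7% of all probe sets tested (43% higher and 40.6% lower). At least 2-fold differences were found for 4 higher and 2 lower genes, beside 30.7% of all probe sets tested, a share of probe sets and not of genes. The 4 higher genes, ST3GAL5, ST3GAL6, ST6GAL1 and ST6GALNAC5, were below 6 on all ZR-75-1 arrays, and ST6GALNAC2 was below 6 on all B6TC arrays. These genes passed the filter only through lines where they were high, so the count is a description only. The median absolute difference of the member probe sets was 1.21, against 0.59 over all tested. Without the third B6TC array 16 of the 19 were called, 11 higher and 5 lower. Over all 21095 tested, 17117 to 17884 were called when any 1 array was left out.

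In the comparison of B6TC with MDA-MB-231, the gene differences were small, between −0.49 and 0.72, and no gene differed by 2-fold at its representative probe set, beside 3.85% of all probe sets tested. ST3GAL2, ST3GAL6 and ST6GALNAC5 were higher in B6TC, ST6GALNAC2 and ST6GALNAC4 were lower, and the other 5 did not pass the test. ST6GALNAC2 was below 6 on every array of both lines and was tested only because it was high in ZR-75-1, so its call compares levels near background. Of the 19 probe sets 9 were called, 6 higher and 3 lower, which is 47.4%, against 65.1% of all probe sets tested (33.9% higher and 31.3% lower). The median absolute difference was 0.23, against 0.26 over all tested. Without the third B6TC array 8 were called, 5 higher and 3 lower, beside 12985 of all 21095 tested.

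In the comparison of MDA-MB-231 with ZR-75-1, ST3GAL2, ST3GAL5, ST3GAL6, ST6GAL1, ST6GALNAC4 and ST6GALNAC5 were higher, ST3GAL1 and ST6GALNAC2 were lower, and ST3GAL4 and ST6GALNAC6 did not pass the test. Of the 19 probe sets 16 were called, 12 higher and 4 lower, which is 84.2%, against 83.7% of all probe sets tested (43.8% higher and 39.9% lower). At least 2-fold differences were found for 5 higher and 2 lower genes, beside 31.5% of all probe sets tested, a share of probe sets and not of genes. Among these genes ST3GAL5, ST3GAL6, ST6GAL1 and ST6GALNAC5 were below 6 on all ZR-75-1 arrays, and ST6GALNAC2 on all MDA-MB-231 arrays. They passed the filter only through lines where they were high. The gene differences ran from −1.93 to 4.38. The comparisons of B6TC and of MDA-MB-231 with ZR-75-1 have the ZR-75-1 arrays in common, so their values are given side by side and are not independent of each other.

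**Figure D1:**
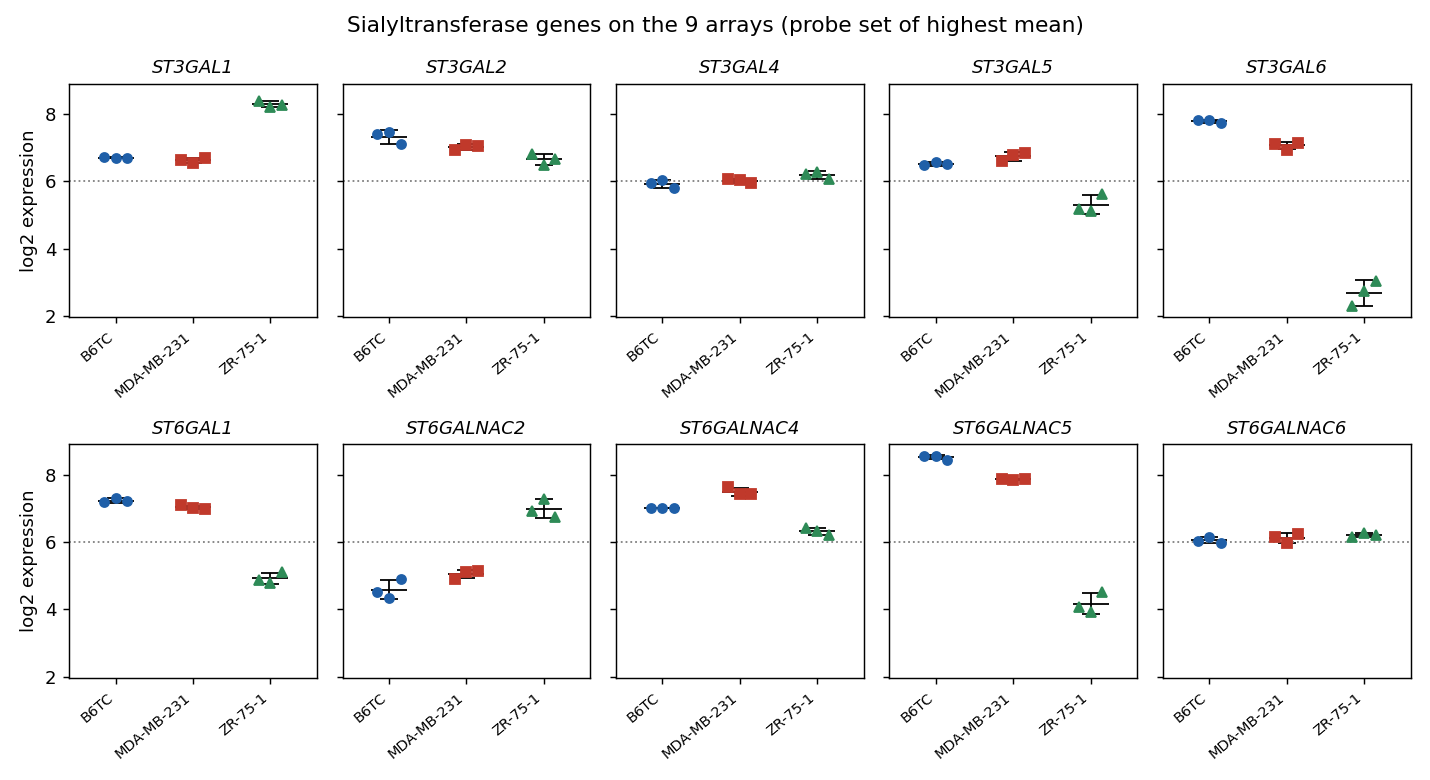
Log2 expression of the 10 sialyltransferase genes on each array (points) at the representative probe set, with B6TC left of MDA-MB-231 and ZR-75-1, the bar at the mean of 3 arrays and a dotted line at the filter level of 6. ST6GALNAC5, ST3GAL6 and ST6GAL1 lay between 6.94 and 8.56 on all B6TC and MDA-MB-231 arrays and between 2.28 and 5.11 on the ZR-75-1 arrays, while ST3GAL1 and ST6GALNAC2 were highest in ZR-75-1.

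ST6GALNAC5 makes alpha-series gangliosides by adding sialic acid to the N-acetylgalactosamine of a glycolipid. It was at a log2 level of 8.56, 8.56 and 8.44 in B6TC, 7.87, 7.84 and 7.87 in MDA-MB-231, and 4.07, 3.91 and 4.51 in ZR-75-1. No arrays of different lines overlapped, and the order of the lines was B6TC, MDA-MB-231, ZR-75-1. The difference of B6TC from MDA-MB-231 was 0.66 (95% interval 0.38 to 0.94, limma adjusted p = 0.00104), or 1.58-fold. The differences of B6TC and of MDA-MB-231 from ZR-75-1 were 4.35 (limma adjusted p = 2.45e-10) and 3.70 (limma adjusted p = 7.78e-10), with a standard error of 0.12 for each.

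A second tested probe set of ST6GALNAC5 separated B6TC and MDA-MB-231 less. It was at 6.68, 6.85 and 6.60 in B6TC, 6.63, 6.51 and 6.30 in MDA-MB-231, and 4.34, 4.20 and 4.49 in ZR-75-1. The B6TC and MDA-MB-231 arrays overlapped, and their difference of 0.23 (95% interval 0.0032 to 0.45) failed the test (limma adjusted p = 0.0698). Against ZR-75-1 it was higher by 2.37 in B6TC and by 2.14 in MDA-MB-231 (limma adjusted p = 4.48e-09 and 9.68e-09). The third probe set of the gene was at 4.26 to 4.92 in all lines and was not tested. The higher level in B6TC than in MDA-MB-231 thus rested on 1 of the 2 tested probe sets. That probe set is of the type open to cross-hybridization, and the one that failed the test is not.

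ST3GAL6 sialylates N-acetyllactosamine ends and is known for a role in making sialyl Lewis selectin ligands. It was at 7.81, 7.82 and 7.73 in B6TC, 7.12, 6.94 and 7.14 in MDA-MB-231, and 2.28, 2.73 and 3.05 in ZR-75-1. A second probe set gave 8.04, 7.97 and 7.94 in B6TC, 7.00, 6.89 and 6.92 in MDA-MB-231, and 2.15, 2.45 and 2.45 in ZR-75-1. At both probe sets every B6TC array lay above every MDA-MB-231 array, and ZR-75-1 was far below the filter level. B6TC exceeded MDA-MB-231 by 0.72 (95% interval 0.37 to 1.07, limma adjusted p = 0.00229) at the first and by 1.04 (95% interval 0.87 to 1.22, limma adjusted p = 2.49e-06) at the second probe set, and the second was the only member probe set called past 2-fold between these lines. Against ZR-75-1 the difference was 5.10 in B6TC (34.2-fold, limma adjusted p = 3.79e-10) and 4.38 in MDA-MB-231 (20.8-fold, limma adjusted p = 1.13e-09), with a standard error of 0.16 for both. Because ST3GAL6 and ST6GALNAC5 were below 6 in ZR-75-1, near background, these differences may understate the change.

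ST6GAL1, which adds sialic acid to position 6 of galactose at the ends of N-glycans, was at 7.17, 7.30 and 7.21 in B6TC, 7.09, 7.01 and 6.99 in MDA-MB-231, and 4.88, 4.78 and 5.11 in ZR-75-1. Both B6TC and MDA-MB-231 lay above ZR-75-1 without overlap, by 2.31 (limma adjusted p = 9.33e-10) and 2.11 (limma adjusted p = 1.76e-09, standard error 0.079 for both). The B6TC arrays also lay above the MDA-MB-231 arrays, yet the difference of 0.20 (95% interval 0.020 to 0.38) failed the test (limma adjusted p = 0.0504). It passed without the second or the third ZR-75-1 array (limma adjusted p = 0.0291 and 0.0108). With the mean of its 3 probe sets, of which 2 were set aside, the difference was −0.053 (limma adjusted p = 0.412). Of the 2 set aside, 1 gave the opposite order, averaging 4.25 in B6TC and 4.59 in MDA-MB-231 without overlap. Its difference was −0.34 (limma adjusted p = 0.0124 without a filter), and its average in ZR-75-1 was 3.20. The other gave −0.018, with overlap. No order of B6TC and MDA-MB-231 is therefore given for this gene.

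ST3GAL5 is GM3 synthase, which makes the first ganglioside from lactosylceramide. It was at 6.47, 6.57 and 6.51 in B6TC, 6.60, 6.78 and 6.85 in MDA-MB-231, and 5.17, 5.12 and 5.63 in ZR-75-1. The arrays of the 3 lines did not overlap, with MDA-MB-231 highest. The difference of B6TC from MDA-MB-231 was −0.23 (95% interval −0.50 to 0.045) and failed the test (limma adjusted p = 0.126), which it passed without the third ZR-75-1 array (limma adjusted p = 0.0148). B6TC exceeded ZR-75-1 by 1.21 (2.31-fold, limma adjusted p = 4.94e-06) and MDA-MB-231 exceeded it by 1.44 (2.71-fold, limma adjusted p = 1.18e-06), each with a standard error of 0.12. All ZR-75-1 arrays were below 6, near background, so these differences may understate the change.

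ST3GAL4, which like ST3GAL6 acts on N-acetyllactosamine ends, differed little between the lines. It was at 5.94, 6.03 and 5.79 in B6TC, 6.05, 6.03 and 5.94 in MDA-MB-231, and 6.21, 6.28 and 6.06 in ZR-75-1, all near the filter level. The B6TC and MDA-MB-231 arrays overlapped, and all lay below the ZR-75-1 arrays. The log2 difference of B6TC from ZR-75-1 was −0.26 (95% interval −0.43 to −0.092, limma adjusted p = 0.00842). The difference from MDA-MB-231 was −0.08 (95% interval −0.25 to 0.085, limma adjusted p = 0.347), and that of MDA-MB-231 from ZR-75-1 was −0.18 (limma adjusted p = 0.0508). The last passed the test without the second or the third B6TC array or without the third ZR-75-1 array (limma adjusted p = 0.0415, 0.0327 and 0.0157), and in all, 9 of 19 alternative settings passed it, with differences between −0.40 and −0.13 over the 19.

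ST3GAL1 sialylates the galactose of the core O-glycan of mucins. It was at 6.71, 6.70 and 6.69 in B6TC, 6.64, 6.55 and 6.69 in MDA-MB-231, and 8.37, 8.20 and 8.28 in ZR-75-1. All ZR-75-1 arrays lay above all others, and the B6TC and MDA-MB-231 arrays overlapped. The log2 difference from ZR-75-1 was −1.58 in B6TC (limma adjusted p = 1.23e-09) and −1.66 in MDA-MB-231 (limma adjusted p = 8.61e-10), both with a standard error of 0.057, so the level in ZR-75-1 was 3.00-fold that in B6TC. Both other probe sets of ST3GAL1 were also lower in B6TC and in MDA-MB-231 than in ZR-75-1, at −1.39 and −1.17 for B6TC and at −1.62 and −1.23 for MDA-MB-231. Between B6TC and MDA-MB-231 the difference was 0.07 (95% interval −0.053 to 0.20, limma adjusted p = 0.278), and 1 of the other probe sets was called higher by 0.23 (limma adjusted p = 0.0424) although its arrays overlapped.

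ST6GALNAC2 adds sialic acid to the N-acetylgalactosamine of mucin-type O-glycans. It was at 4.52, 4.33 and 4.91 in B6TC, 4.90, 5.11 and 5.14 in MDA-MB-231, and 6.92, 7.29 and 6.75 in ZR-75-1. The ZR-75-1 arrays were highest and were the only ones above the filter level. The log2 difference from ZR-75-1 was −2.40 in B6TC (limma adjusted p = 1.81e-07) and −1.93 in MDA-MB-231 (limma adjusted p = 1.03e-06), with a standard error of 0.16 for both. The third B6TC array lay 0.48 above the mean of arrays 1 and 2, and among the representative probe sets of the 10 genes it was the only one higher on that array.

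The level of ST6GALNAC2 in B6TC was also below that in MDA-MB-231, at a difference of −0.47 (95% interval −0.83 to −0.10, limma adjusted p = 0.0282), with an overlap of the third B6TC array and the first MDA-MB-231 array. Without the third B6TC array the difference was −0.63 (limma adjusted p = 0.00508). It no longer passed the test without the first or the second B6TC array (−0.43 and −0.34, limma adjusted p = 0.0775 and 0.107), or without the second or the third MDA-MB-231 array (−0.44 and −0.42, limma adjusted p = 0.0784 and 0.0847). Both lines were below the filter level at this probe set.

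ST6GALNAC4, which makes disialylated O-glycans, was highest in MDA-MB-231. It was at 7.00, 7.01 and 7.00 in B6TC, 7.63, 7.41 and 7.43 in MDA-MB-231, and 6.42, 6.33 and 6.21 in ZR-75-1. No arrays of different lines overlapped, and B6TC lay between the other lines. The log2 difference of B6TC from MDA-MB-231 was −0.49 (95% interval −0.64 to −0.33, limma adjusted p = 0.000159), that of B6TC from ZR-75-1 was 0.68 (limma adjusted p = 5.23e-06) and that of MDA-MB-231 from ZR-75-1 was 1.17 (limma adjusted p = 6.40e-08), all with a standard error of 0.070. A second probe set gave −0.54, 0.74 and 1.27 for the same differences, all called. One more gave −0.13 (limma adjusted p = 0.264), 0.24 (limma adjusted p = 0.0477) and 0.37 (limma adjusted p = 0.00565), so the difference from MDA-MB-231 was called at 2 of 3 tested probe sets. All 3 are of the type open to cross-hybridization.

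ST6GALNAC6, which also makes alpha-series gangliosides, passed no test. It was at 6.03, 6.15 and 5.97 in B6TC, 6.15, 5.97 and 6.24 in MDA-MB-231, and 6.15, 6.26 and 6.20 in ZR-75-1, and the arrays of each pair of lines overlapped. The 95% intervals of the differences were −0.23 to 0.10 for B6TC against MDA-MB-231, −0.32 to 0.018 for B6TC against ZR-75-1 and −0.25 to 0.085 for MDA-MB-231 against ZR-75-1. The limma adjusted p-values were 0.455, 0.0863 and 0.320 in that order. Without the second B6TC or the second MDA-MB-231 array the difference of B6TC from ZR-75-1, −0.20 and −0.15, passed the test (limma adjusted p = 0.0441 and 0.0423). ST6GALNAC4 and ST6GALNAC6 are neighbors in the genome and share an annotated readthrough transcript, so their probe sets may detect shared RNA.

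ST3GAL2, which sialylates glycolipids and O-glycans at the terminal galactose, was at 7.40, 7.47 and 7.09 in B6TC, 6.92, 7.08 and 7.05 in MDA-MB-231, and 6.81, 6.49 and 6.65 in ZR-75-1. At this probe set the lines did not overlap, and the order was B6TC, MDA-MB-231, ZR-75-1, with a gap of 0.015 between the lowest B6TC and the highest MDA-MB-231 array. B6TC exceeded ZR-75-1 by 0.67 (limma adjusted p = 0.000167) and MDA-MB-231 exceeded it by 0.36 (limma adjusted p = 0.00882), with a standard error of 0.11 for both. The other 3 tested probe sets gave 1.62, 1.04 and 0.15 for B6TC against ZR-75-1, all called. For MDA-MB-231 against ZR-75-1 they gave 1.24, 1.09 and 0.058 in the same order. The last of these had overlapping arrays and was not called (limma adjusted p = 0.385).

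Between B6TC and MDA-MB-231 the ST3GAL2 difference was 0.31 (95% interval 0.067 to 0.54, limma adjusted p = 0.0284), and it was lost with several arrays left out. It no longer passed without the first or the second B6TC array (0.27 and 0.23, limma adjusted p = 0.0888 and 0.107), or without the first or the third MDA-MB-231 array (0.26 and 0.32, limma adjusted p = 0.0932 and 0.0530). Without the third B6TC array it was 0.42 (limma adjusted p = 0.00337). With the mean of all probe sets of the gene it was 0.11 and did not pass (limma adjusted p = 0.0641). Of the other probe sets, 1 was higher by 0.37 (limma adjusted p = 0.00356) and 2 did not pass the test, at −0.06 and 0.09 (limma adjusted p = 0.746 and 0.193).

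**Figure D2:**
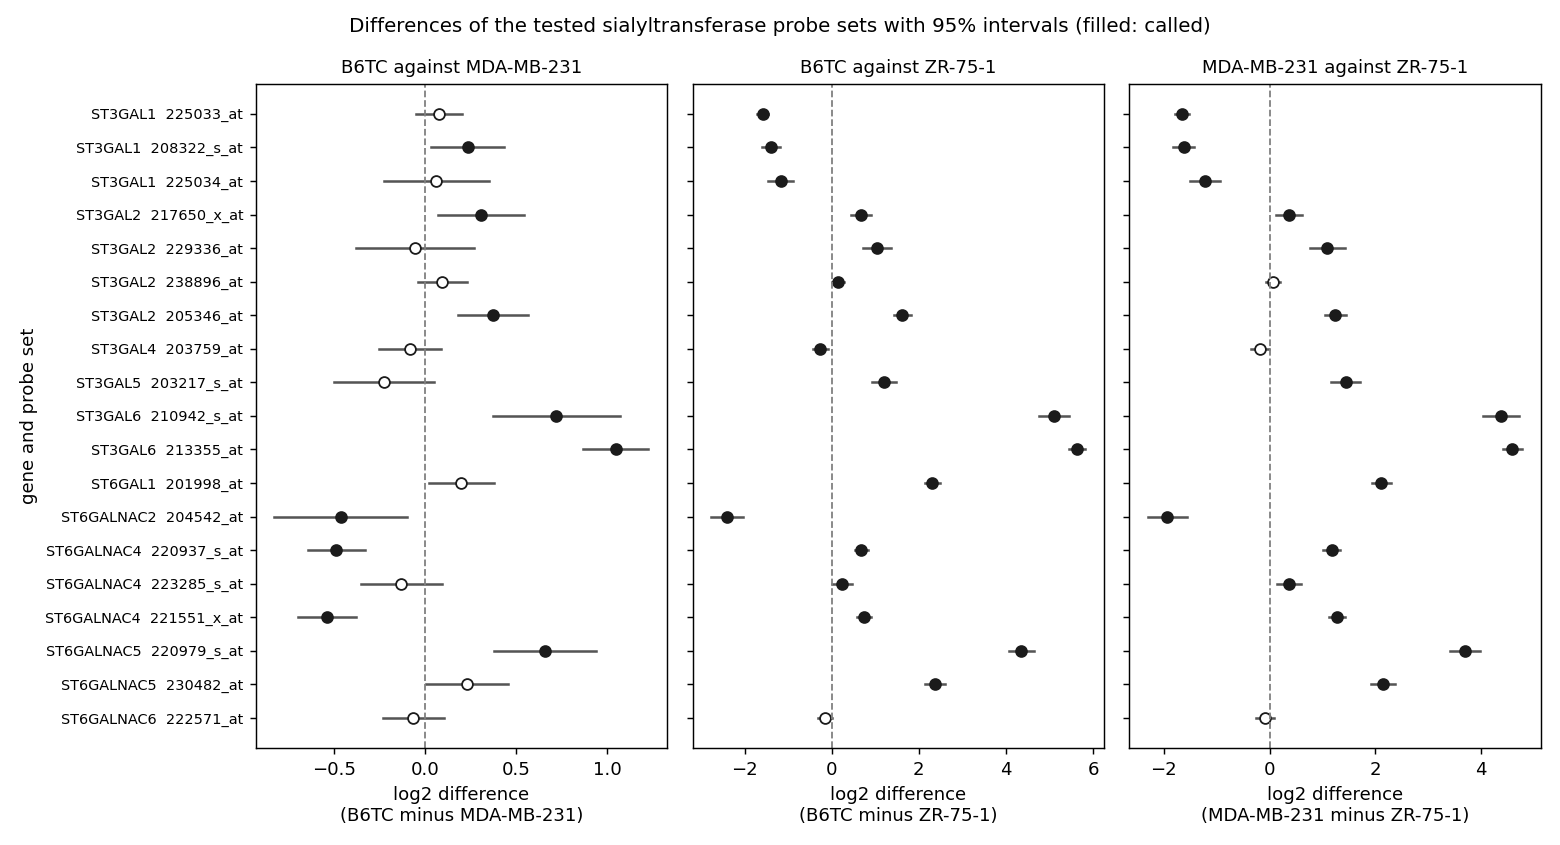
Log2 differences with 95% intervals for the 19 tested probe sets of the 10 genes. Filled points mark differences called at an adjusted p of 0.05 or less. The panels show B6TC minus MDA-MB-231, B6TC minus ZR-75-1 and MDA-MB-231 minus ZR-75-1. Differences between B6TC and MDA-MB-231 stayed within −0.54 and 1.04, while those from ZR-75-1 ran from −2.40 to 5.63.

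Of the 10 other sialyltransferase genes fixed as a list, 9 had a probe set and 2 were tested. ST8SIA4, which makes polysialic acid, was at 5.40, 5.60 and 5.62 in B6TC, 5.25, 5.34 and 5.15 in MDA-MB-231, and 7.52, 7.69 and 7.65 in ZR-75-1. All arrays of B6TC and MDA-MB-231 were below those of ZR-75-1, at differences of −2.08 and −2.37 (standard error 0.076, limma adjusted p = 1.46e-09 and 5.41e-10). B6TC exceeded MDA-MB-231 by 0.29 (limma adjusted p = 0.00666) at this probe set, where both lines were below 6, near background, and its 4 tested probe sets gave 2 higher, 1 lower and 1 not called there. ST3GAL3 passed no test. The other 7 genes with a probe set, among them ST8SIA1 and ST6GALNAC1, reached the filter on too few arrays to be tested.

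The supply of the donor was described with 5 genes of sialic acid synthesis and transport, all tested. In B6TC 4 were higher than in MDA-MB-231, none lower and 1 not called, beside 33.9% higher and 31.3% lower over all probe sets tested. Against ZR-75-1, 3 were higher and 1 lower in B6TC, and MDA-MB-231 had 1 higher and 2 lower, beside 83.7% of all probe sets called in each of these comparisons. With 5 genes, these counts say nothing particular to the list.

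GNE, the first enzyme of sialic acid synthesis, was at 9.30, 9.33 and 9.32 in B6TC, 8.20, 8.16 and 8.16 in MDA-MB-231, and 6.40, 6.62 and 6.60 in ZR-75-1. The lines were well apart, with B6TC highest, by 1.15 over MDA-MB-231 (standard error 0.059, limma adjusted p = 2.49e-07) and by 2.78 over ZR-75-1 (limma adjusted p = 3.22e-11). MDA-MB-231 exceeded ZR-75-1 by 1.63 (limma adjusted p = 1.31e-09). CMAS, which makes CMP-sialic acid, was at 7.96, 8.11 and 7.95 in B6TC, 7.09, 7.09 and 6.89 in MDA-MB-231, and 7.32, 7.39 and 7.63 in ZR-75-1. It was also highest in B6TC, by 0.98 over MDA-MB-231 (standard error 0.090, limma adjusted p = 7.78e-06) and by 0.56 over ZR-75-1 (limma adjusted p = 0.000176), while MDA-MB-231 lay below ZR-75-1 at −0.42 (limma adjusted p = 0.00133).

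SLC35A1, the Golgi transporter of CMP-sialic acid, was at 8.79, 8.85 and 8.78 in B6TC, 8.31, 8.20 and 8.36 in MDA-MB-231, and 9.75, 9.83 and 9.79 in ZR-75-1. It was highest in ZR-75-1, at differences of −0.98 for B6TC and −1.50 for MDA-MB-231 (standard error 0.052 for both, limma adjusted p = 2.29e-08 and 8.90e-10), and B6TC exceeded MDA-MB-231 by 0.52 (limma adjusted p = 1.39e-05). NANS, the sialic acid synthase, was higher in B6TC than in both other lines, by 0.27 and 0.23, and NANP, the phosphatase of the next step, passed no test. GNE and SLC35A1 each have 1 probe set on the array, and 1 of the 2 for CMAS was tested.

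**Figure D3:**
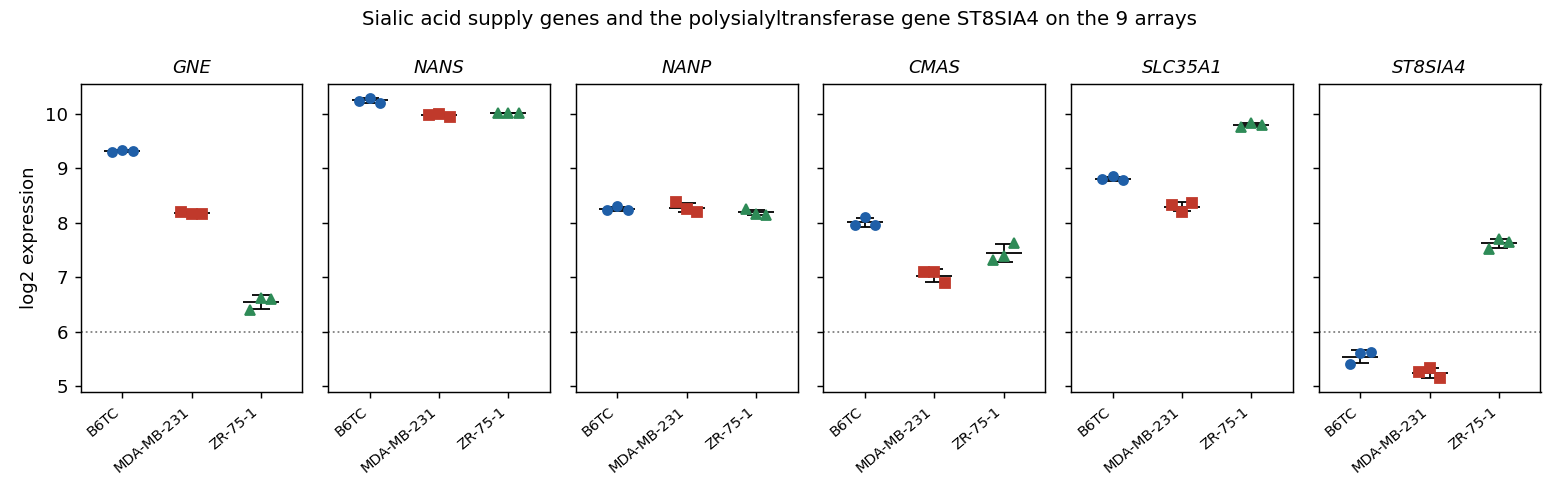
Log2 expression on each array of GNE, NANS, NANP, CMAS, SLC35A1 and ST8SIA4, in B6TC, then MDA-MB-231, then ZR-75-1, with the bar at the mean of 3 arrays. GNE lay at 9.30 or more in B6TC, between 8.16 and 8.20 in MDA-MB-231 and between 6.40 and 6.62 in ZR-75-1, whereas SLC35A1 and ST8SIA4 were highest in ZR-75-1.

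Of 10 genes of sialic acid removal and recycling, 8 were tested. In B6TC 1 was higher and 3 were lower than in MDA-MB-231, and 2 were higher and 4 lower than in ZR-75-1. MDA-MB-231 had 2 higher and 3 lower than ZR-75-1. The shares of these 8 genes that were called lay below those of all probe sets tested, 65.1% between B6TC and MDA-MB-231 and 83.7% in each comparison with ZR-75-1. NEU1, the lysosomal sialidase, averaged 7.77 ± 0.050 in B6TC and 8.22 ± 0.11 in MDA-MB-231 (SD, n = 3 arrays each), at a difference of −0.45 (limma adjusted p = 0.000170). SIAE, which removes acetyl groups from sialic acid, was higher in B6TC than MDA-MB-231 by 0.36 (limma adjusted p = 0.00314) and lower than in ZR-75-1, at −0.79 (limma adjusted p = 5.99e-06). SLC17A5, which exports sialic acid from the lysosome, was higher than in ZR-75-1 by 1.36 in B6TC and by 1.25 in MDA-MB-231 (limma adjusted p = 1.15e-08 and 2.15e-08).

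The glycolipid acceptors of ST3GAL5 and ST6GALNAC5 start from lactosylceramide. Of 6 genes of the glycolipid core 4 were tested, of which B6TC had 2 higher and 1 lower than MDA-MB-231. Relative to ZR-75-1, both B6TC and MDA-MB-231 had 3 higher and 1 lower. Over all probe sets tested, 65.1% were called between B6TC and MDA-MB-231 and 83.7% in each comparison with ZR-75-1, and with 4 genes nothing particular to the list is read from its counts. B4GALT6, a lactosylceramide synthase, exceeded ZR-75-1 by 2.96 in B6TC and by 2.24 in MDA-MB-231 (standard error 0.052 for both, limma adjusted p = 9.22e-12 and 5.85e-11), where it averaged 5.38, near background. B4GALT5, the other lactosylceramide synthase, exceeded ZR-75-1 by 2.37 and by 1.78 in the same lines (standard error 0.066 for both, limma adjusted p = 2.00e-10 and 1.57e-09). Against MDA-MB-231 the representative probe sets of B4GALT6 and B4GALT5 were higher in B6TC by 0.72 and 0.59 (limma adjusted p = 1.73e-06 and 2.93e-05), but each gene also had 1 tested probe set called lower there, at −0.28 and −0.30.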

How the data were processed

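Total RNA of near confluent cultures was measured on Affymetrix U133 Plus 2.0 arrays, 3 technical replicates for each line. The authors deposited log2 expression values, for which the submitters' processing notes name RMA and Affymetrix Expression Console. The methods name GC-RMA instead, so the background correction is not settled, and the normalization was kept as deposited. For the RNA purification the labels and the methods name different kits. Versions and the raw scans were not used here, and the precision is limited by the number of arrays.

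The platform annotation gave 41091 probe sets with a single symbol, 1801 with several and 11721 with none, and no member was named from a probe set with several. The 62 control probe sets were left out. Lines were compared with limma 3.58.1 (R 4.3.3) by fitting a mean for each line over all 9 arrays, moderated variances (6 residual and 3.68 prior degrees of freedom), 95% intervals and Benjamini-Hochberg adjustment over all 21095 tested probe sets within each comparison. The procedure was tested on simulated data. All 10 genes are named, and of each other list the 2 called genes with the largest absolute difference in each comparison. The members and lists were chosen with earlier results of these data known. Start sites and their sequences came from RefSeq on GRCh38.p14.

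Results were recomputed with robust regression, with robust or trended variances, without a filter or with one that also asks for variation, with arrays centered or quantile normalized once more, on the pair of lines alone, without probe sets open to cross-hybridization, with a fold minimum, other ways to represent a gene, with a replicate block and without each array in turn.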

Additional observations from a re-analysis of the deposited data

How the results depend on the processing

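Over the 3 comparisons, the single-gene differences of the 10 sialyltransferases kept their direction and side of the threshold in most settings where they were recomputed. They were not recomputed without probe sets open to cross-hybridization or with the fold minimum, for which only counts are given. Without probe sets open to cross-hybridization, 7507, 9874 and 9858 of 11781 probe sets were called, and 3, 10 and 8 of the 11 remaining member probe sets. The order, here and below, is B6TC against MDA-MB-231, B6TC against ZR-75-1 and MDA-MB-231 against ZR-75-1. The cause of the lower member share between B6TC and MDA-MB-231 was not tested. With a fold minimum of 2, 813, 6484 and 6635 were called, and 1, 12 and 14 of the 19 member probe sets. Leaving out 1 array gave 12674 to 13872, 17117 to 17884 and 17207 to 17624 calls, and 6 to 10, 16 to 18 and 16 to 17 member calls. Without a filter, 8, 19 and 20 of the 27 member probe sets were called, beside 16780, 26255 and 25413 of all 54613. ST3GAL2 and ST6GALNAC2 then no longer passed between B6TC and MDA-MB-231 (limma adjusted p = 0.0589 and 0.0517). The ST6GAL1 difference there turned to −0.053 with the mean of its probe sets (limma adjusted p = 0.412), and passed with robust regression, centered arrays or the compared lines only (limma adjusted p = 0.0202, 0.0264 and 0.0113). ST3GAL5 passed there with robust regression and with the compared lines only (limma adjusted p = 0.00625 and 0.0212). The cause was not tested.

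The labels number the arrays of each line, but same-numbered arrays did not deviate together: of 9 pairs, 1 correlated above 0.1 (range −0.10 to 0.18), and 3 of the 9 arrays correlated best with their own number. With the replicate number as a block, 13489, 17508 and 17580 probe sets and 9, 18 and 17 member probe sets were called, and ST3GAL4 passed between MDA-MB-231 and ZR-75-1 (limma adjusted p = 0.0107).

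Values under 6 were treated as near background, although background was not measured. This limits what can be said of ST3GAL5, ST3GAL6, ST6GALNAC5 and ST6GAL1 in ZR-75-1 and of ST6GALNAC2 in B6TC and MDA-MB-231. The arrays are technical replicates, and differences between cultures were not measured.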

Other observations

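Further lists hold enzymes that build the chains on which sialyltransferases act. Over all probe sets tested, 65.1% were called between B6TC and MDA-MB-231 and 83.7% in each comparison with ZR-75-1, and the counts below are given beside these shares as a description, with nothing particular to a list read from them. Of 11 genes of N-glycan branching and galactosylation 10 were tested, of which B6TC had 2 higher and 3 lower than MDA-MB-231, and 3 higher and 5 lower than ZR-75-1. MDA-MB-231 had 3 higher and 4 lower than ZR-75-1. MGAT2, which starts the second N-glycan antenna, averaged 10.64 in B6TC, 10.01 in MDA-MB-231 and, lowest, 9.05 in ZR-75-1. All 3 differences passed the test. B4GALT3, a galactosyltransferase, was below MDA-MB-231 in B6TC, at −0.46 (limma adjusted p = 0.000856). MGAT4A, which adds an N-glycan branch, averaged 3.58 in both B6TC and MDA-MB-231 and 7.73 in ZR-75-1, a difference from ZR-75-1 of −4.15 for B6TC and −4.15 for MDA-MB-231. Both lines were near background there, so the change may be understated.

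Of 13 genes of mucin-type O-glycan cores 11 were tested, of which B6TC had 5 higher and 4 lower than MDA-MB-231, and 3 higher and 8 lower than ZR-75-1. MDA-MB-231 had 4 higher and 5 lower than ZR-75-1. GALNT10, which starts O-glycans, was below MDA-MB-231 in B6TC, at −1.53 (limma adjusted p = 2.71e-08), and GALNT1 was higher by 0.58 (limma adjusted p = 1.08e-05). Of the 4 tested probe sets of GALNT1, 3 were called higher there and 1 was not called, at −0.0099. GALNT12 and GALNT6, of the same family, differed from ZR-75-1 by −4.06 and −2.16 in B6TC and by −4.19 and −2.41 in MDA-MB-231. GALNT12 averaged 4.04 in B6TC and 3.91 in MDA-MB-231, near background, so its change may be understated. Of 7 Lewis fucosyltransferases 2 were tested, of which FUT6 passed no test. FUT4, which completes Lewis structures, was higher in B6TC than MDA-MB-231 by 0.46 (limma adjusted p = 0.000119). It exceeded ZR-75-1 by 0.88 in B6TC (limma adjusted p = 2.98e-07) and by 0.42 in MDA-MB-231 (limma adjusted p = 0.000114). FUT4 averaged below 6, near background, in both MDA-MB-231 and ZR-75-1. FUT9 was not tested, and against ZR-75-1 its means ran the other way. They were 5.48 for ZR-75-1, 2.55 for MDA-MB-231 and 2.52 for B6TC, all under 6 and so near background.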
